A study of Homo sapiens with 2 samples.

Results

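The genes described here encode the 5 subunits of the transcription factor NF-kB (NFKB1, NFKB2, RELA, RELB and REL) and 5 proteins that hold it in check or modify its action on DNA (NFKBIA, NFKBIB, NFKBIE, TNFAIP3 and BCL3). They were taken by gene symbol, with earlier results of these data known, and are 10 of 56690 symbols in the deposited table. Each stands on a single row, and all 10 passed the minimum of 10 reads in at least 1 library. The study sequenced polyadenylated RNA of Tu212, an epithelial-derived line that serves as a head and neck squamous carcinoma model. One culture had received the empty pEZ vector and the other the pEZ plasmid carrying PRMT5, in both cases for 48 h. There was 1 library per group, so no difference below has a replicate check, no test was run, and all values describe the libraries rather than the conditions. The sources used here do not give the share of cells that took up either plasmid.

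NF-kB acts as dimers of Rel-family proteins. In resting cells the dimers are retained in the cytoplasm by IkB proteins, and a kinase complex, IKK, marks IkB for destruction when receptors of the tumour necrosis factor, interleukin-1 or Toll-like families are engaged. The freed dimers switch on cytokines, survival genes and also the genes of their own inhibitors, above all NFKBIA and TNFAIP3, so that the signal shuts itself off. Squamous carcinoma cells often show tonic activity of this pathway.

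Gene counts summed to 14119997 reads (vector control) and 19908258 reads (PRMT5 overexpression). PRMT5 itself was read 2068 and 5770 times, which is 145 and 293 CPM (reads per 1e6 reads of the library, scaled by the TMM method). Its log2 ratio, PRMT5 overexpression over vector control, was 1.01, with a 95% interval of 0.94 to 1.09. Intervals here come from the reads alone (Clopper-Pearson) and cover counting error only. All 10 squamous epithelial markers were measured, with summed levels of 12757 CPM and 13818 CPM and a median log2 ratio of 0.15. The summed levels of the other marker lists were 5.89 CPM in the control and 2.18 CPM in the other library for 8 fibroblast genes (FAP at 0 reads), 22.1 CPM and 17.5 CPM for 8 leukocyte genes, and 6.03 CPM and 4.57 CPM for 6 endothelial genes (CDH5 and KDR at 0 reads). The leukocyte sum was mostly CD68, which shares exon bases with other counted genes, while the pan-leukocyte gene PTPRC had 0 and 4 reads. The 10 NF-kB genes summed to 662 CPM and 602 CPM, and the part of the marker differences in theirs was not tested. In bulk RNA, fewer cells of one kind and less RNA per cell cannot be told apart.

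Most of the NF-kB genes were slightly lower in the PRMT5 overexpression library, and none differed by 1.5-fold. Lower by 1.15-fold to 1.35-fold, with intervals wholly below 0, were NFKB1, REL, NFKBIA, TNFAIP3 and BCL3. RELA and NFKB2, the subunits with the most reads, were within 1.04-fold of the control. NFKBIB alone was higher with an interval above 0, by 1.32-fold. Of the 10 genes, 7 had a log2 ratio below 0 (8 when scaled by total reads, with RELA), where 49.6% of all 17777 genes reaching 10 reads in either library did. An interval below 0 was found for 5, against 14.3% of all genes, and one above 0 for 1, against 14.3%. Among 7077 genes averaging at least 500 reads, where intervals are narrower, 49.3% were below 0, 20.8% had an interval below 0 and 22.3% one above. Of the 6 NF-kB genes with that many reads, 4 were below 0, each with an interval below 0, and 0 had one above. A difference of 1.5-fold or more was seen for 5.33% of all genes on the lower side and 7.06% on the higher side, and for 1.38% and 1.62% of genes averaging at least 500 reads. Differences of 2-fold or more, also seen for 0 of the 10, made up 1.94% of all genes on the lower and 2.90% on the higher side. The median log2 ratio of the 10 genes was -0.24, beside 0.00219 for all genes tested.

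**Figure D1:**
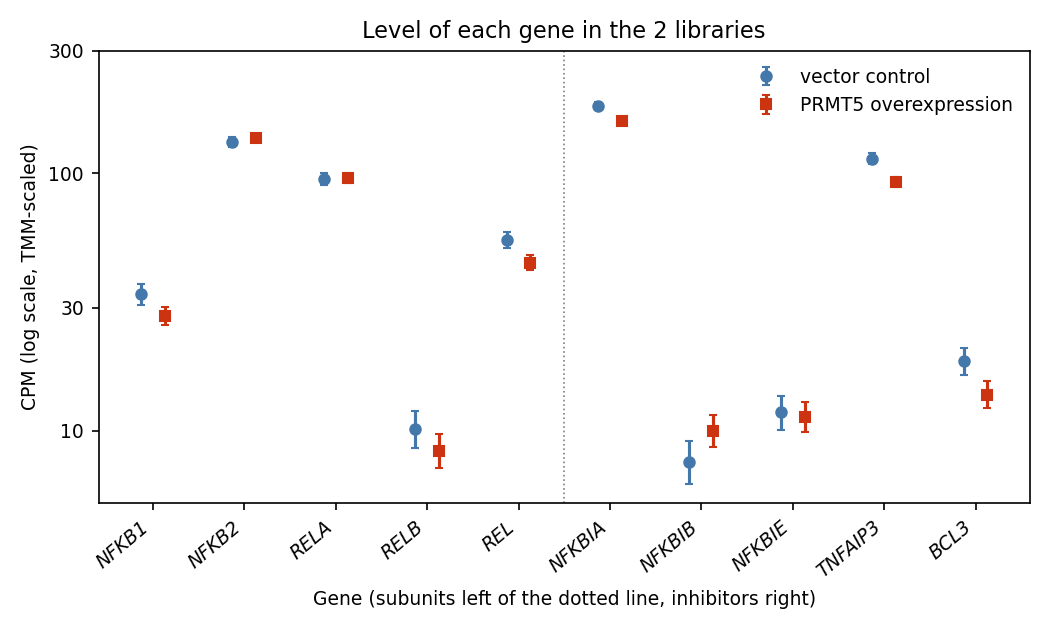
Level of the 10 genes in the vector control (blue circles) and PRMT5 overexpression (red squares) libraries, in TMM-scaled CPM on a log axis; bars are exact 95% Poisson intervals of the reads, 1 library per group. NFKBIA is the highest at 183 and 159.7 CPM, and RELB and NFKBIB are the lowest, between 7.57 and 10.2 CPM.

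The sequences before the gene starts are shown for genes that held a kB match, since self-regulation of this family runs through kB sites there. Of those shown, NFKBIA, TNFAIP3, NFKB1 and REL were lower, and NFKB2 and NFKBIB were not. BCL3, also lower, and RELA held no match and are not shown. RefSeq (GRCh38.p14) gave 250-base windows before 13 starts of 8 of the 10 genes. RELB and NFKBIE had no entry. The 10-letter kB consensus was searched by name on both strands, and overlapping matches were merged into 1 place. It was present before at least 1 start of 6 of these 8 genes, beside 11.8% of 27305 genes in RefSeq. Counted by window, 7 of 13 held it, beside 9.96% of all 35116 windows of this length. Capitals mark the consensus match, and each line is written 5′ to 3′ on the strand of the gene.
NFKBIA, chr14:35404750-35404999, minus strand, the 250 bases up to the start: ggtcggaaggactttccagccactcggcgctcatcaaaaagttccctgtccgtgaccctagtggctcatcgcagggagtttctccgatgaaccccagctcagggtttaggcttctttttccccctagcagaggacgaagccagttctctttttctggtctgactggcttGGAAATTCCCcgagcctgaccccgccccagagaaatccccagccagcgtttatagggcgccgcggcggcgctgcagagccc
TNFAIP3, chr6:137867188-137867217, plus strand: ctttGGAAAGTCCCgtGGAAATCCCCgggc
NFKB1, chr4:102501300-102501329, plus strand: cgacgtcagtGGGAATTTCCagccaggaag
REL, chr2:60881518-60881547, plus strand: gtcagccgcGGGAAATTCCCctcccgccag
NFKB2, chr10:102395674-102395703, plus strand: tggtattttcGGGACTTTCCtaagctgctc
NFKBIB, chr19:38899932-38899961, plus strand: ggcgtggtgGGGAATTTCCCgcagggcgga

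In NFKBIA the match lay 81 to 72 bases before the start, on the opposite strand to the gene. TNFAIP3 had 2 matches between 67 and 46 bases before its start, also on the opposite strand. The matches of NFKB1 and REL began 49 and 47 bases before the start. These distances are from the RefSeq starts. GENCODE release 29 places the starts of TNFAIP3, NFKB1, REL and BCL3 further upstream. The printed matches of TNFAIP3, REL, NFKB2 and NFKBIB lie inside the gene as annotated there. NFKB2 and NFKBIB, which were not lower, held the consensus as well, before starts downstream of their first. NFKB2 had 2 such places before each of 2 starts, the most of the 8 genes, of which 1 is printed, and NFKBIB had 1 place before 1 start. Neither window of RELA and not the window of BCL3 held these letters. That only BCL3 window lies inside the gene as annotated by GENCODE, so the bases before its GENCODE start were not searched. Counted over all starts, the genes with and without a match were not divided by the direction of their log2 ratio. At the first start of each gene alone, NFKBIA, TNFAIP3, NFKB1 and REL held a match. NFKB2, NFKBIB, RELA and BCL3 held none there. Which starts were in use was not tested. A match is a description of letters, and binding was not measured in these libraries.

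Among the subunits, RELA and the p52 precursor gene NFKB2 were level between the libraries. RELA encodes p65, the subunit that carries the main transactivation domain of the canonical dimer. It had 1356 reads in the vector control and 1894 in the PRMT5 overexpression library, or 95.1 CPM and 96.1 CPM. The log2 ratio of RELA was 0.01 (interval -0.09 to 0.12.) NFKB2, whose product is processed in the non-canonical arm of the pathway, had 1886 and 2712 reads, or 132 CPM and 138 CPM. Its log2 ratio was 0.06 (interval -0.03 to 0.14.) For both genes the interval spans less than 0.15 to either side of 0, while the log2 ratios of the lower subunits were near -0.28.

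NFKB1 and REL were lower in the PRMT5 overexpression library. NFKB1, which encodes the p105 protein and its product p50, had 483 and 551 reads, at 33.9 CPM in the control and 28.0 CPM in the other library. Its log2 ratio was -0.28 (interval -0.46 to -0.10.) REL, the gene of c-Rel, had 787 and 887 reads, at 55.2 CPM and 45.0 CPM. The log2 ratio of REL was -0.29 (interval -0.43 to -0.15.) REL shares 5702 exon bases with the same-strand transcript AC010733.2, which had 699 and 843 reads, so reads over those bases are uncertain. Summed with it, REL was at -0.25 (interval -0.35 to -0.15.) RELB, the non-canonical partner of p52, had a log2 ratio of a similar size, at -0.28, but rested on 145 and 165 reads. Its levels were 10.2 CPM and 8.37 CPM, and its interval of -0.61 to 0.05 held 0, so a difference was not detectable at this depth.

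The composition of the subunit reads differed by a few percentage points. NFKB2 took 40.5% of the reads on the 5 subunit genes in the vector control (39.1% to 41.9%) and 43.7% in PRMT5 overexpression (42.4% to 44.9%). The share of REL was 16.9% (15.8% to 18.0%) and 14.3% (13.4% to 15.2%), and that of NFKB1 was 10.4% (9.51% to 11.3%) and 8.87% (8.18% to 9.61%). Shares of a common total are not independent of each other. By their own log2 ratios NFKB2 was level, while NFKB1 and REL were lower. RELA held 29.1% and 30.5%, and RELB 3.11% and 2.66%. These are shares of reads and not of molecules, since the genes differ in length. All 5 subunits together had 4657 and 6209 reads, which gave a log2 ratio of -0.05 (interval -0.11 to 0.0029.)

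Among the inhibitors, the pair with the most reads was lower in the PRMT5 overexpression library. NFKBIA encodes IkB-alpha, the fast-turning inhibitor that is remade within the response. It had 2610 reads in the vector control and 3148 in the other library, or 183 CPM and 159.7 CPM. Its log2 ratio was -0.20 (interval -0.27 to -0.12), a 1.15-fold lower level. TNFAIP3 encodes A20, a ubiquitin-editing enzyme that shuts off signalling upstream of IKK. It had 1627 and 1823 reads, at 114 CPM and 92.5 CPM. The log2 ratio of TNFAIP3 was -0.30 (interval -0.40 to -0.21.) The opposite-strand gene AL357060.1 shares 95 exon bases with it and had 26 and 44 reads, and their sum was at -0.29. NFKBIA and TNFAIP3 held 88.7% of the reads on the 5 inhibitor genes in the vector control and 87.8% in the other library.

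The remaining inhibitors had fewer reads and did not move one way. BCL3, a nuclear IkB protein that joins p50 or p52 dimers on DNA and can activate as well as repress, had 265 and 272 reads. Its level was 18.6 CPM in the control and 13.8 CPM in PRMT5 overexpression. The log2 ratio of BCL3 was the lowest of the 10 genes, at -0.43 (interval -0.68 to -0.18.) NFKBIE, the gene of IkB-epsilon, had 168 and 223 reads, or 11.8 CPM and 11.3 CPM. The log2 ratio of NFKBIE was -0.06 (interval -0.35 to 0.24), which is too wide to tell it from the other inhibitors. NFKBIB, the gene of IkB-beta, had 108 and 197 reads, at 7.57 CPM in the control and 9.99 CPM in the other library. Its log2 ratio was 0.40 (interval 0.05 to 0.75.) NFKBIB shares 40 exon bases with the opposite-strand gene SIRT2, a deacetylase gene with 457 and 651 reads, and summed with SIRT2 it was at 0.12 (interval -0.04 to 0.27, which held 0). Such a sum is mostly SIRT2 by its construction.

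**Figure D2:**
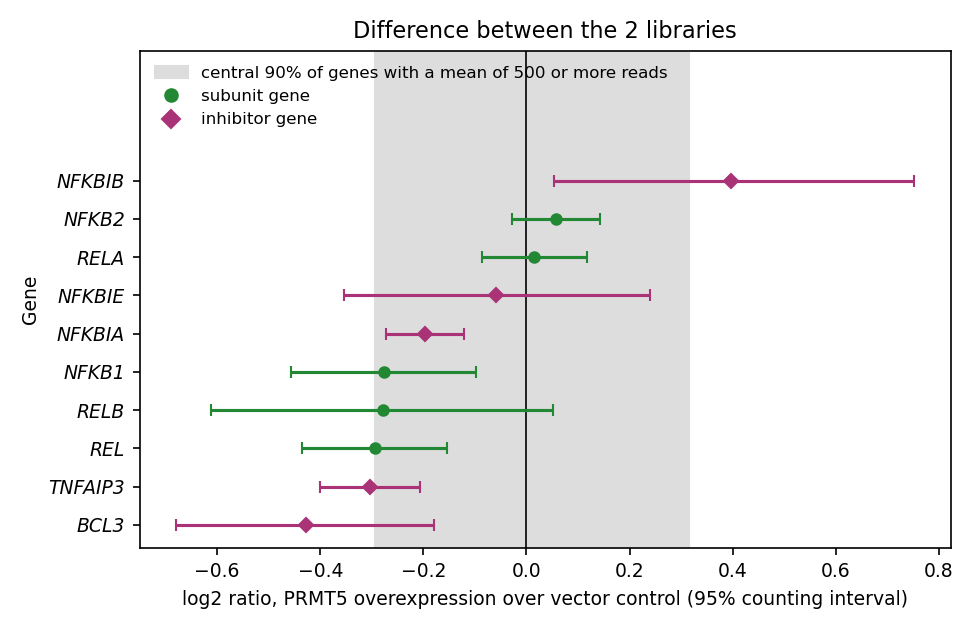
Log2 ratio of each gene, PRMT5 overexpression over vector control, with 95% counting intervals; green circles are subunit genes, purple diamonds inhibitor genes, and the grey band spans the central 90% of 7077 genes averaging at least 500 reads. The points run from -0.43 for BCL3 to 0.40 for NFKBIB, and REL at -0.29 lies at the lower edge of the band.

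The grey band in the plot of log2 ratios runs from -0.29 to 0.32. TNFAIP3 at -0.30 and REL at -0.29 lay just below its lower edge, and NFKB1 and NFKBIA, also lower and averaging at least 500 reads, lay inside. BCL3 and NFKBIB lay outside, but have fewer reads than the genes behind the band. The spread among genes with fewer reads was wider, as the plot of all genes shows.

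**Figure D3:**
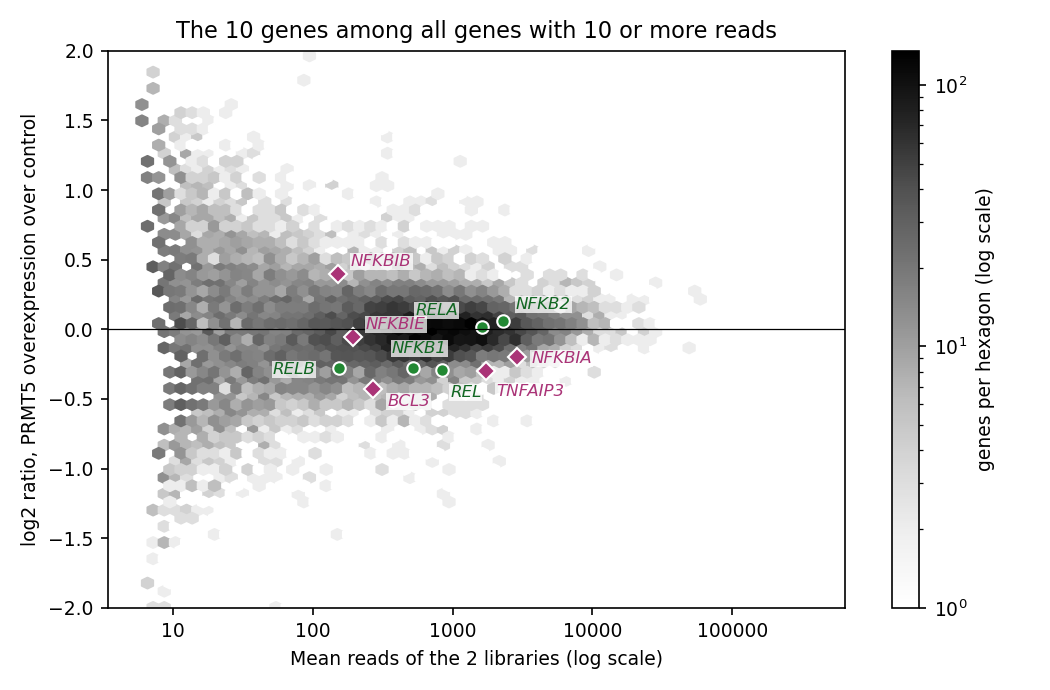
Log2 ratio, PRMT5 overexpression over vector control, against the mean reads of the 2 libraries on a log axis, for 17777 genes reaching 10 reads in either library (grey hexagons, darker for more genes; 160 genes beyond 2 on the log2 scale are not drawn). The 5 subunit genes (green circles) and 5 inhibitor genes (purple diamonds) lie within the cloud, between -0.43 and 0.40.

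Ratios of reads between 2 genes within a library do not depend on how the libraries are scaled. There were 1.92 NFKBIA reads per RELA read in the vector control and 1.66 in the PRMT5 overexpression library, a log2 change of -0.21 with an exact conditional interval of -0.34 to -0.08. TNFAIP3 reads per RELA read went from 1.20 to 0.963, a log2 change of -0.32 (interval -0.46 to -0.18.) Against NFKB1, which was itself lower, NFKBIA was level, with ratios of 5.40 and 5.71 and an interval of -0.11 to 0.27. NFKB2 reads per NFKB1 read were 3.90 and 4.92, a log2 change of 0.33 (interval 0.13 to 0.53.) RELB per RELA and BCL3 per NFKB1 had log2 changes of -0.30 and -0.15, and both intervals held 0. In sum the inhibitors had 1.03 reads per subunit read in the vector control and 0.912 in the other library, a log2 change of -0.17 (interval -0.25 to -0.09.) That sum follows NFKBIA and TNFAIP3, which hold most of the inhibitor reads.

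Compared per length, NFKBIA was the most abundant of the 10 in both libraries. In CPM per kilobase of merged GENCODE exon, NFKBIA had levels of 77.1 in the vector control and 67.3 in PRMT5 overexpression. NFKB2 was next, at 29.5 and 30.7 CPM per kilobase. TNFAIP3 was at 22.6 and 18.3 and RELA at 17.4 and 17.6 CPM per kilobase. TNFAIP3 stood above RELA beyond the counting intervals in the vector control, and in the other library their intervals overlapped, at 17.5 to 19.2 and 16.8 to 18.4. The other 6 genes lay between 2.76 and 5.73 CPM per kilobase. In the vector control BCL3, NFKB1 and NFKBIE followed each other with overlapping intervals, then REL, RELB and NFKBIB, each overlapping the one before it. In PRMT5 overexpression NFKB1, NFKBIE, NFKBIB and BCL3 lay between 4.26 and 4.47 with overlapping intervals, above REL and RELB at 3.42 and 2.76, whose intervals overlapped each other only. The deposited FPKM, which divides by another length per gene, had the same top 4 genes in the vector control in the same order. They were at 26.5 for NFKBIA, 21.1 for NFKB2, 9.18 for TNFAIP3 and 5.36 for RELA. Below them the order differed, with REL at 4.40 above NFKB1 at 3.31 and BCL3 at 3.07. In PRMT5 overexpression the FPKM was 7.30 for TNFAIP3 and 5.31 for RELA. How close TNFAIP3 and RELA stood, and the order of the lower genes, thus depended on the length used.

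The other genes of the pathway were described by role from lists written for this purpose. Without the 10 genes and PRMT5, 143 of 153 listed genes had enough reads. Their median log2 ratio was -0.04, with 84 below 0 (58.7%, beside 49.6% of all genes). The interval was below 0 for 29 of them (20.3%) and above 0 for 17 (11.9%), beside 14.3% of all genes on each side. A level 1.5-fold or more lower was seen for 9 (6.29%) and 1.5-fold or more higher for 4 (2.80%), beside 5.33% and 7.06% of all genes. Among the 9 was UBE2V1, which came to -0.08 when summed with a gene that shares its exons. The same shares of all genes stand beside the counts of each list below.

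**Figure D4:**
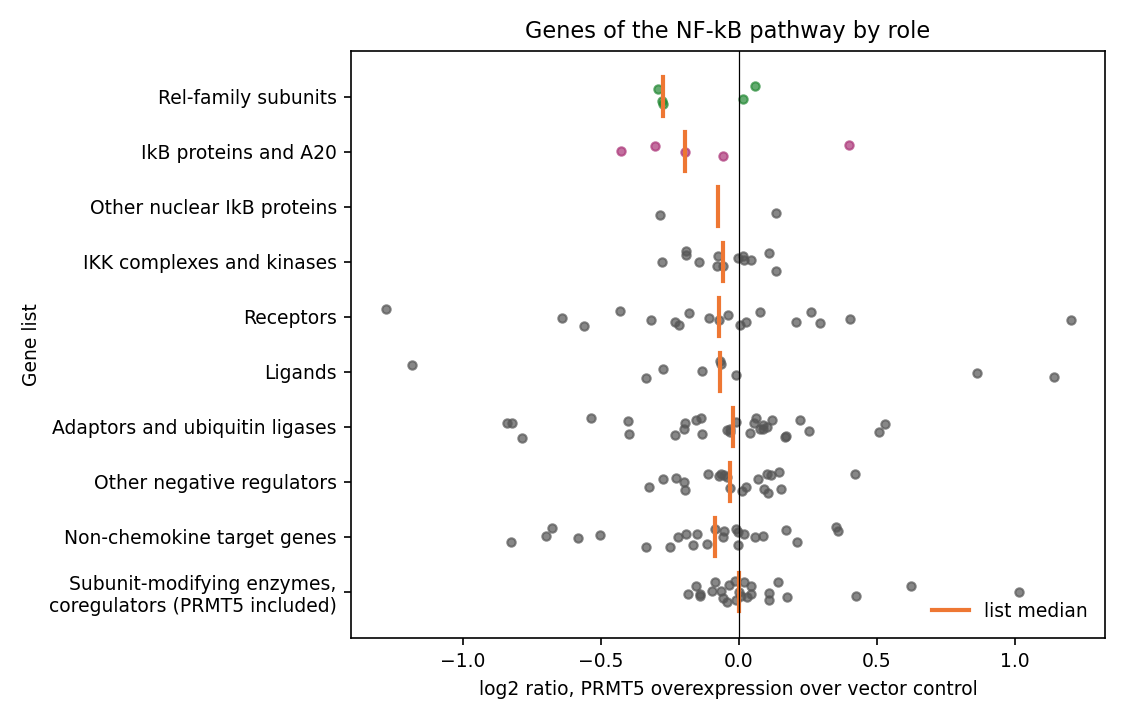
Log2 ratio, PRMT5 overexpression over vector control, of every measured gene of the pathway lists, 1 point per gene with random vertical scatter; orange bars are list medians, and green and purple points are the subunit and inhibitor genes. List medians other than those of the subunits (-0.28) and of the IkB proteins with A20 (-0.20) lie between -0.09 and 2.5e-05, and the widest scatter is among receptors and ligands.

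Of the IKK complexes and related kinases, 13 of 13 were measured, 8 of them below 0, with a median log2 ratio of -0.06 and 0 at 1.5-fold. The interval was below 0 for 2, MAP3K8 (TPL2, the kinase bound by p105) at -0.28 (interval -0.55 to -0.0077) and the TAK1 adaptor gene TAB2 at -0.15. DESeq2 size factors shift every log2 ratio and interval up by 0.0226, which takes the upper end for MAP3K8 past 0. TANK and IKBKE were both at -0.19, with intervals that held 0. The genes of the core IKK subunits, named here after their values were seen, were at -0.06 for CHUK, -0.08 for IKBKB and 0.04 for IKBKG, and all 3 intervals held 0. Of 2 other nuclear IkB genes, 1 was below 0 and 1 above, with a median of -0.08. NFKBID, named after its value was seen, had 61 and 69 reads and was at -0.29, with an interval that held 0. NFKBIZ had 106 and 161 reads, for a log2 ratio of 0.13, with an interval that held 0.

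Upstream of IKK, 19 of 20 receptor genes were measured, 11 below 0, with a median of -0.07. Of these, 2 were 1.5-fold or more lower and 1 as much higher. The interval was below 0 for 4 and above 0 for 2. Named after their values were seen, IL18R1 was lower with 17 and 9 reads, and TLR5 higher with 14 and 46. The double-stranded RNA sensor gene TLR3 had 129 and 114 reads, for a log2 ratio of -0.64 (interval -1.02 to -0.27.) TLR2 was at -0.32 with an interval that held 0, and TLR6, which shares exon bases with TLR1, was at -0.22. TNFRSF1A, the main receptor for tumour necrosis factor, had 919 and 1465 reads and was higher, at 0.21 (interval 0.09 to 0.33.) Of 12 ligand genes 9 were measured, 7 below 0, with a median of -0.07. Here 1 was 1.5-fold or more lower and 2 as much higher, and the interval was below 0 for 2 and above 0 for 1. Also named after their values were seen, IL1B was lower with 29 and 17 reads. TNF and EDA were higher, with 4 and 11 reads and with 12 and 38. The cytokine gene IL1A had 913 and 1042 reads, for a log2 ratio of -0.28 (interval -0.41 to -0.15), while TNFSF10, LTB and IL18 had intervals that held 0. LTA had 0 reads in both libraries.

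The 30 adaptors and ubiquitin ligases included the lowest log2 ratios among pathway genes averaging at least 100 reads. MYD88, the adaptor of Toll-like and interleukin-1 receptors, had 304 reads in the vector control and 237 in PRMT5 overexpression. Its log2 ratio was -0.82 (interval -1.08 to -0.58.) BIRC3, an inhibitor of apoptosis that is itself a known NF-kB target, had 211 and 201 reads, for a log2 ratio of -0.53 (interval -0.82 to -0.25.) SKP1, a subunit of the ligase that marks IkB for destruction, had 1619 and 3233 reads and was higher, at 0.53 (interval 0.44 to 0.62). SKP1 shares exon bases with TCF7 and was at 0.50 in the sum. UBE2V1 was at -0.84, but it shares exon bases with the readthrough gene TMEM189-UBE2V1 and came to -0.08 when summed with it. Of the 30 genes, 16 were below 0 and 14 above, with a median of -0.02, and 9 had an interval below 0 and 5 above.

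Other negative regulators had a median of -0.03, with 11 of 21 measured genes below 0 and 0 at 1.5-fold. TNIP1, which encodes a partner of A20, was lower like TNFAIP3, with 2965 and 3500 reads, for a log2 ratio of -0.23, interval -0.30 to -0.16. The ubiquitin ligase gene PELI1 was at -0.28 (interval -0.41 to -0.14), and TRIM21 was at 0.42 (interval 0.22 to 0.63.) SOCS1 was at -0.32 with an interval that held 0.

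The non-chemokine target genes of NF-kB had a median of -0.09, with 18 of 25 measured genes below 0, beside 49.6% of all genes. This count was 15 when scaled by DESeq2 size factors. Of these genes 3 were 1.5-fold or more lower and 0 as much higher, beside 5.33% and 7.06% of all genes. The 3, named after their values were seen, had few reads, with 25 and 19 for PTX3, 19 and 16 for IL6 and 44 and 37 for PTGS2, and the intervals of PTX3 and IL6 held 0. The stress-response gene GADD45B had 633 and 617 reads, for a log2 ratio of -0.50 (interval -0.67 to -0.34.) CD83 had 251 and 443 reads and was at 0.35 (interval 0.13 to 0.58), and C3 and CSF1 had intervals that held 0. BCL2A1, CSF3 and VCAM1 had 0 reads in both libraries. The interval was below 0 for 5 of the 25 and above 0 for 2, beside 14.3% of all genes on each side.

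Enzymes and coregulators that act on the subunits had a median near 0 with PRMT5 included, at 2.5e-05, and 12 of 25 genes below 0. PRMT5 belongs here because it is known to methylate p65 on arginine, which the RNA levels do not measure. HDAC3, which encodes a deacetylase of p65, had 1294 and 2757 reads, for a log2 ratio of 0.62 (interval 0.53 to 0.72.) SETD6, which encodes a lysine methyltransferase of p65, was at 0.42, but shares exon bases with CNOT1 and came to -0.08 in the sum. KAT2B was at -0.18 with an interval that held 0.

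All 10 genes are protein-coding, and their positions in the deposited table equal those in GENCODE release 29 (GRCh38). NFKBIA (ENSG00000100906) is a minus-strand gene of chromosome 14, from 35401511 to 35404749, with 5 merged exons. TNFAIP3 (ENSG00000118503) is a plus-strand gene of chromosome 6, from 137867188 to 137883312, with 10 merged exons. NFKB1 (ENSG00000109320) spans 102501329 to 102617302 on the plus strand of chromosome 4. REL (ENSG00000162924) spans 60881521 to 60931610 on the plus strand of chromosome 2, and RELA (ENSG00000173039) 65653596 to 65663094 on the minus strand of chromosome 11. NFKB2 (ENSG00000077150) lies on chromosome 10 from 102394110 to 102402529. BCL3 (ENSG00000069399), RELB (ENSG00000104856) and NFKBIB (ENSG00000104825) all lie on chromosome 19, and NFKBIE (ENSG00000146232) on chromosome 6. NFKB1, RELB, NFKBIA, NFKBIE, TNFAIP3 and BCL3 had no 50-base stretch of their longest transcript in transcripts of other genes that share no exon base with them. The share of such stretches was 0.593% for NFKB2, 0.955% for RELA, 2.78% for NFKBIB and 8.47% for REL.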

How the data were processed

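One library per group, vector control and PRMT5 overexpression, was grouped by the genotype label. Per the submitters' processing notes, CASAVA 1.8, HISAT2 2.1.0, StringTie 1.3.4b and edgeR were used with GRCh38 and hg38, without stated roles; the sources used here do not say whether counting used strand. The authors deposited raw counts and FPKM per gene. The raw counts were used as deposited. Rows of 1 symbol were summed (221 symbols had more than 1 row). TMM factors (edgeR 4.0.16, R 4.3.3) were 1.01 and 0.990, computed over genes reaching 10 reads in either library. The log2 ratio is the difference in log2 CPM with a prior count of 1. A counting interval is the 95% Clopper-Pearson interval of the reads, scaled by library size. Reads are not independent molecules, so it covers counting error only. Implied lengths behind the authors' deposited FPKM were the same in both libraries, within 1%, for 100% of 11478 genes.

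The 10 genes, the pathway lists and the alternatives were chosen with earlier results of these data known. Pathway genes were named by rule, up to 4 per list with the largest absolute log2 ratio among those with a mean of 100 or more reads. Exon sharing came from GENCODE release 29, counting partners with 10 or more reads. The interval was tested on simulated data of the comparison of PRMT5 overexpression with vector control, for 17777 genes. It lay on the right side of 0 for 84% of 50 genes lowered to 0.8 of their level. Of the intervals of unchanged genes, 95.8% held 0. Only counting error was simulated, with no spread between cultures and no TMM step. The changed genes were drawn from those averaging 100 or more reads. The simulation therefore checks the counting interval and not how separate cultures differ. Alternatives were other prior counts, DESeq2 1.42.0 size factors, scaling by total reads, FPKM with a pseudocount of 1, the highest row per symbol, other floors, protein-coding genes only and sums over exon-sharing genes. TMM over all genes was added after seeing the data. Calculations used Python 3.11.15 and scipy 1.17.1.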

Additional observations from a re-analysis of the deposited data

How the results depend on the processing

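The direction of the log2 ratio was kept for 9 of the 10 genes under every alternative run. The exception was RELA, which ranged from -0.01 to 0.04, below 0 when scaled by total reads and with FPKM. The largest shift of every log2 ratio by another scaling was -0.03, with total reads. Among the genes with few reads, BCL3 ranged from -0.46 to -0.33, RELB from -0.31 to -0.18 and NFKBIB from 0.12 to 0.42. The count of NF-kB genes with an interval above 0 was 0 in place of 1 when summed with exon-sharing genes, because SIRT2 brings most of the reads of the NFKBIB sum. With FPKM plus 1, PRMT5 had a log2 ratio of 0.93; the pseudocount shrinks ratios by construction. The numbers of all genes past a fold moved with the floor, which sets how many sparse genes enter. At 1.5-fold, 947 lower and 1255 higher genes became 4346 and 4917 without a floor, 348 and 442 at a floor of 50 reads, and 223 and 326 with FPKM. At 2-fold, 344 lower and 516 higher became 2872 and 2145 without a floor, 118 and 136 at a floor of 50 reads, 54 and 75 with FPKM, and 227 and 267 with a prior count of 5. With a floor of 50 reads fewer genes were measured, and 7 receptors and 4 ligands had a log2 ratio below 0. Of the read ratios between NF-kB genes, only that of TNFAIP3 to RELA could change under the alternatives run, and its log2 change went from -0.32 to -0.31 when summed with AL357060.1. With 1 library per group, no replicate could be left out. No paired analysis was possible because there is 1 library per group.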
